A study of Mus musculus with 16 samples.

Results

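The genes that place fucose on the glycans of the intestinal lining were measured in the ileum of 16 mice. The 8 genes described, of 24940 in the count table, were taken by symbol: Fut1, Fut2, Fut4, Fut8, Gmds, Slc35c1, B4galnt2 and Pofut1. The set was proposed because Fut1 had been seen to be lower in male than in female WT ileum, so values of that contrast are given as a description with no test.

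RNA was sequenced from 4 groups of 4 C57BL/6 mice, namely male and female Bcl6 fl/fl mice (WT) and male and female Alb-cre, Bcl6 fl/fl mice (LKO), so that the floxed allele was shared by all 4 groups. Alb-Cre is driven by the albumin promoter and removes Bcl6, a transcriptional repressor, from hepatocytes, so the ileum was not the tissue of deletion and no group here carried the Cre without the floxed allele. The tissue was taken next to the cecum, as a piece of about 1 cm per the labels where the methods give a longer piece, and neither the age of the animals nor whether these pieces came from fed or briefly fasted mice was given. The comparison of genotypes within each sex asks how ileal RNA differs when hepatic Bcl6 is lost.

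Fucose is attached to growing glycans in the Golgi by fucosyltransferases that use GDP-fucose as the donor. FUT1 and FUT2 build the H antigen, the precursor of the ABO blood group structures, and FUT2 in the gut epithelium makes the fucosylated surface that commensal bacteria feed on and attach to. In mouse ileum, Fut2 is known to be induced by interleukin 22 from innate lymphoid cells, and B4GALNT2 adds a terminal sugar that marks the Sda and related antigens on the same kind of chain.

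On mm10, the coordinates of the count table place Fut1 on chromosome 7 at 45617606 to 45621059 (plus strand) and Fut2 downstream of it at 45648591 to 45666394 (minus strand), 27532 bases apart. Sec1, a relative of both in the same cluster, follows 11292 bases further on. B4galnt2 lies on chromosome 11 at 95863559 to 95914871 (minus strand), and Fut4 on chromosome 9 at 14748459 to 14752122 (minus strand). Counts were summed over the exons of each gene, and no other gene in the table overlapped any of the 8.

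Of the 8 genes, 7 had promoter windows from RefSeq on GRCm38.p6, each running from 250 bases before to 50 bases after a start. Fut2 was the one without a window. The windows of Fut1 (chr7:45617356-45617655, plus strand) and B4galnt2 (chr11:95914822-95915121, minus strand) are shown because most of the results turn on these genes. Capitals mark the GC box GGGCGG, the core of the site for Sp family factors.
Fut1: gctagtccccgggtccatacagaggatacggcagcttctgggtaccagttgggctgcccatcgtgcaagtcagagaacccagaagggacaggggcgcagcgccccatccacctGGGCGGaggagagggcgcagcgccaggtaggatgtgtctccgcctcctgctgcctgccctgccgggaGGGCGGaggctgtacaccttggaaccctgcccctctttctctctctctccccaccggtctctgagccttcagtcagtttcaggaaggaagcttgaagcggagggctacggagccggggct
B4galnt2: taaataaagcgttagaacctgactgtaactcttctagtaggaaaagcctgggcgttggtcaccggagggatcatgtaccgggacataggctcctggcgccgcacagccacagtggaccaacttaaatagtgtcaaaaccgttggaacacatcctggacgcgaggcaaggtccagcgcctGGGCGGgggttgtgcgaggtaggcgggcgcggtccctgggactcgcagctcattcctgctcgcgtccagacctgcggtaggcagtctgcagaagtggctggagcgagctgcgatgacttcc
The Fut1 window had 64.7% G and C, 15 CpG dinucleotides and 2 GC boxes, and the B4galnt2 window had 59.0% G and C, 21 CpG dinucleotides and 1 GC box. Windows of Gmds and Pofut1 each held 5 GC boxes. Over all 32851 promoter windows, the median was 52.7% G and C with 7 CpG dinucleotides, and 35.7% held a GC box. On both strands, searches for TATAAA (in 13.6% of windows), for the STAT motif TTCNNNGAA (8.30%), for the HNF4 motif CAAAGTCC (1.42%) and for the HNF1 motif GTTAAT (7.10%) found none in the 11 windows of the 7 genes. The CDX2 motif TTTATTG (4.6% of all windows) was found once, in a window at an alternative start of Fut8.

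Depth was even apart from a single library. Total gene counts were 15.7 to 20.5 M in 15 libraries and 60.3 M in female LKO replicate 1. Bcl6 itself, in CPM (counts relative to library size, scaled by trimmed mean of M-values), ranged over 14.1 to 17.8 in male WT, 17.3 to 21.8 in male LKO, 9.25 to 15.1 in female WT and 15.2 to 26.1 in female LKO ileum. Ileal Bcl6 RNA was therefore present in all groups, and its female difference for LKO over WT was 0.77 on the log2 scale (SE 0.21, adjusted p = 0.285 in edgeR). Summed over 8 epithelial markers (Epcam, Cdh1, Vil1, Krt8, Krt18, Krt19, Krt20 and Cldn7), the level was 17068 to 18544 CPM in male WT, 17962 to 19013 in male LKO, 14523 to 16674 in female WT and 15061 to 17525 in female LKO. All 8 were detected in every library, so the labelled tissue carried its epithelial RNA, with higher medians in males. In 4 libraries (male WT replicate 2, female WT replicate 3 and female LKO replicates 2 and 3) the sum of 6 B cell markers was above 50 CPM. Values without these libraries are given beside some of the results, and changes of sign are listed in the closing section. The 2 highest Bcl6 libraries, female LKO replicates 2 and 3, were among these 4, and without the 4 the female Bcl6 difference was 0.55 (adjusted p = 0.671).

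Levels were compared between genes per kilobase of transcript (RPKM, from the lengths in the table). In the mean of the 16 libraries, Gmds, which makes the first committed intermediate of GDP-fucose, stood at 273 RPKM and B4galnt2 at 241 RPKM. Slc35c1, the transporter that carries GDP-fucose into the Golgi, was at 81.7 RPKM. The fucosyltransferases were lower. Fut8, which adds the core fucose of N-glycans, was at 28.6 RPKM over the length of a non-coding transcript that stands for it in the table, Fut4, which adds fucose to make Lewis x, at 13.4 RPKM, Fut2 at 12.2 RPKM and Pofut1, the O-fucosyltransferase of Notch receptors, at 8.24 RPKM. Fut1 was the lowest of the 8 at 1.01 RPKM, resting on 20 to 74 counts in 15 libraries and 213 in the deepest. Mean Fut2 was below mean Fut4 in 3 groups and above it in male LKO mice (18.6 against 14.3 RPKM), where replicate 3 (39.7 against 15.6 RPKM) set the order and the other 3 mice had less Fut2 than Fut4.

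**Figure D1:**
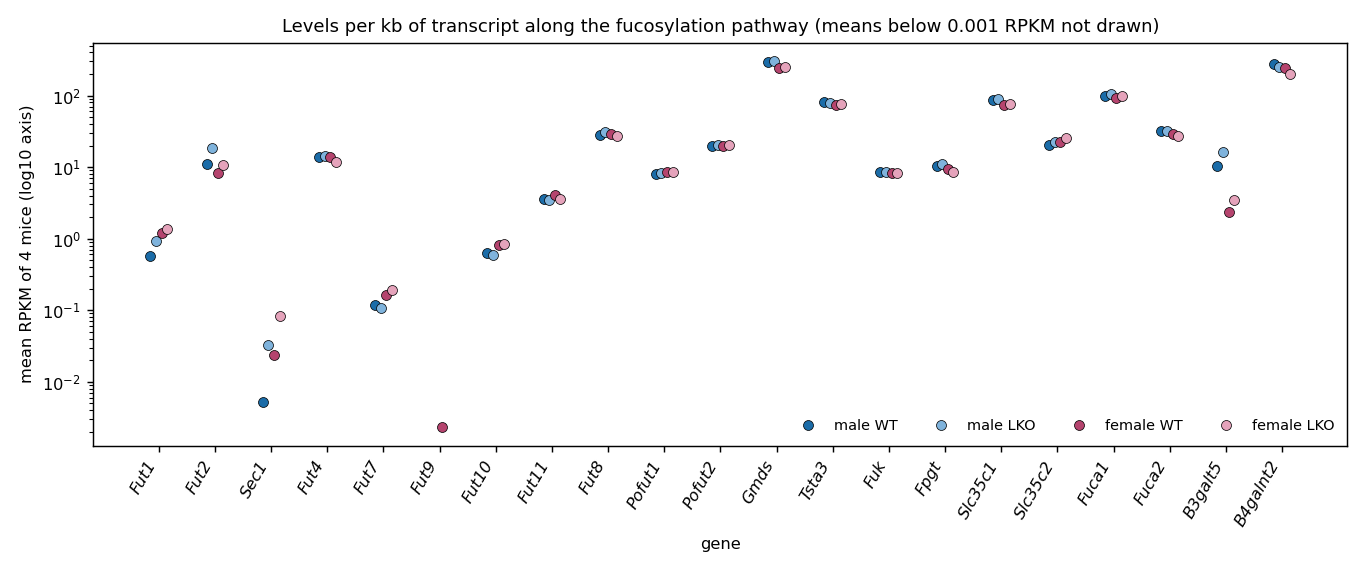
Mean level of each gene in each group of 4 mice, in RPKM on a log10 axis, for fucosyltransferases, GDP-fucose synthesis, transport and removal, and chain building. Gmds and B4galnt2 lie between 201 and 304 RPKM in all groups while Fut1 lies between 0.567 and 1.35 RPKM.

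The rest of the fucosylation pathway was covered by lists chosen with earlier results known. Among 11 fucosyltransferase genes, 8 passed the filter on low counts, and in edgeR 0 were called for LKO over WT in males, females or both, with 1 in each at an unadjusted p below 0.05. In the same order, 5.29%, 11.7% and 11.2% of all genes tested had such a p. DESeq2 called 0 in these 3 comparisons, where it called 0.415%, 1.01% and 1.44% of all genes. Sec1 had 27 counts in all 16 libraries together, and Fut9, which makes Lewis x in brain, had 2 counts in 1 library. In GDP-fucose synthesis and transport, all 12 genes passed. Tsta3, the table's older name for Gfus, which completes GDP-fucose from the product of GMDS, was at 77.4 RPKM and ranged from 92.1 to 114 CPM over all libraries.

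Fut1 had the widest differences between group means of the 8 genes, and had been chosen for such a difference. In male WT ileum, Fut1 was at 1.57, 1.27, 1.58 and 1.42 CPM (replicates 1 to 4), with a mean of 1.46 ± 0.146 (SD, n = 4). Male LKO ileum had 2.38, 1.90, 2.94 and 2.44 CPM, with a mean of 2.41 ± 0.423. No male LKO animal fell as low as any male WT animal. In female WT ileum, Fut1 was at 3.10, 3.28, 3.23 and 2.64 CPM, with a mean of 3.06 ± 0.293. Female LKO ileum had 3.44, 2.62, 4.15 and 3.71 CPM, with a mean of 3.48 ± 0.642. The order was thus female LKO, female WT, male LKO and male WT. Neighbours in that order overlapped in range, apart from the last pair. The SD of the 4 group means was 0.53 on the log2 scale, against 0.21 within groups.

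**Figure D2:**
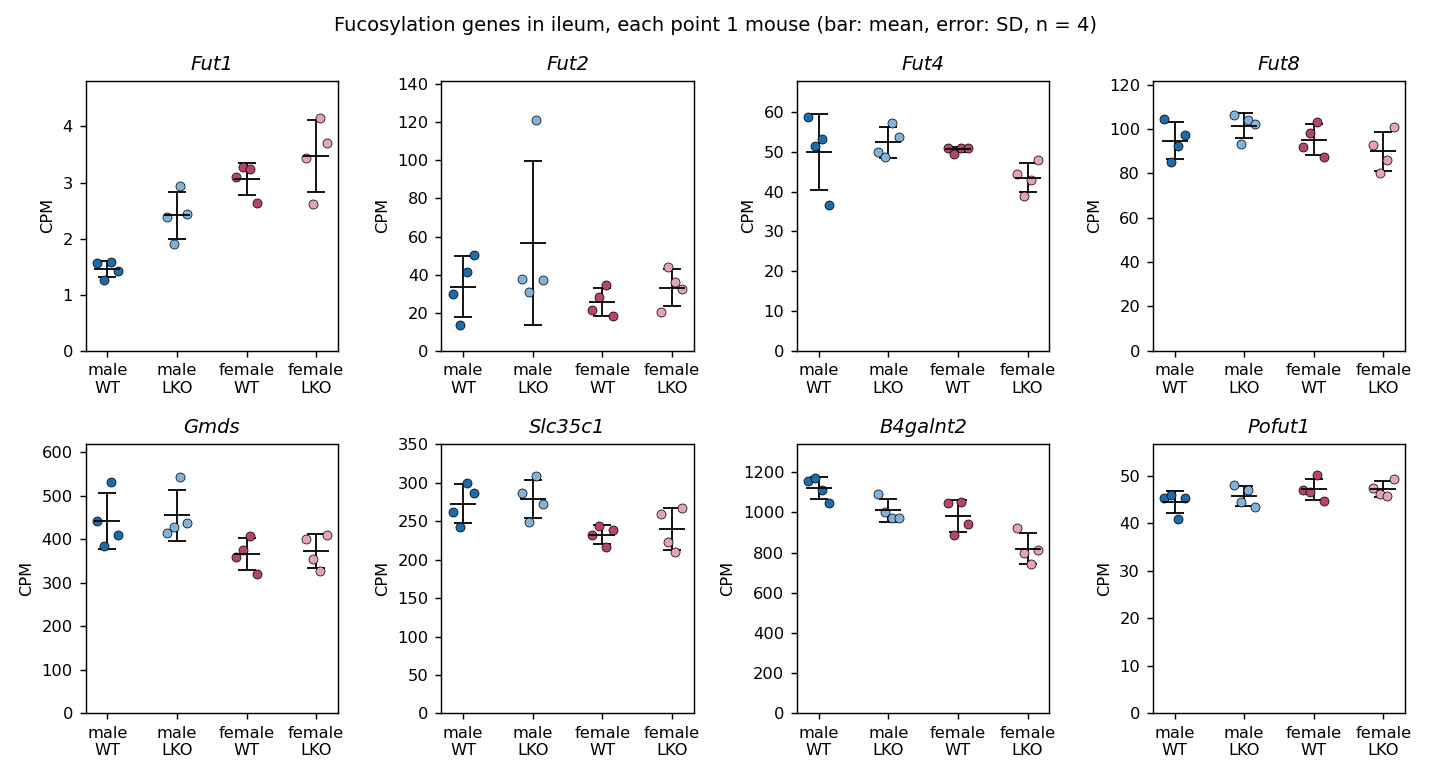
CPM of the 8 genes in each of 16 libraries, by group. Points are mice, the bar is the mean and the error is the SD (n = 4). Fut1 lies between 1.27 and 1.58 CPM in male WT mice and between 1.90 and 2.94 CPM in male LKO mice, and 1 male LKO library has 121 CPM of Fut2.

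In males, the fitted log2 fold change of Fut1 for LKO over WT was 0.72 (SE 0.22), a fold of 1.65, but the adjusted p over all genes was 0.546 in edgeR's quasi-likelihood test, so the gene was not called. The same male WT mice had entered the contrast that drew attention to Fut1. Across all genes tested in males, 8 of 15169 (0.0527%) were called and 2.87% had groups that did not overlap. Of the 8 fucosylation genes, 0 were called in edgeR or DESeq2, 2 (Fut1 and B4galnt2) had an unadjusted p below 0.05 and 1, Fut1, had groups without overlap. Over all genes, 5.29% had an unadjusted edgeR p below 0.05. Leaving out each male library in turn gave a Fut1 difference of 0.62 to 0.82.

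In females, Fut1 had a log2 fold change of 0.19 (SE 0.18, adjusted p = 0.674 in edgeR) with overlapping groups. Called genes in females numbered 6 of 15298 (0.0392%), and 6.30% of genes had groups without overlap. Again 0 of the 8 genes were called in edgeR or DESeq2, and 2 (Fut4 and B4galnt2) had an unadjusted p below 0.05 in edgeR, as had 11.7% of all genes. With sex as a covariate over all 16 libraries, where 0.269% of genes were called, Fut1 had a log2 fold change of 0.43 (SE 0.14, adjusted p = 0.206 in edgeR). The difference between the male and the female effect was 0.53 (SE 0.26, adjusted p = 0.845 in edgeR), so the genotype effect on Fut1 was not shown to differ between the sexes. That interaction called 0 of 15598 genes (0%) in edgeR and 0 in DESeq2, and 879 genes had an unadjusted p below 0.05 in edgeR.

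Between the sexes, the WT difference is described only. The fitted log2 value of Fut1 was lower by 1.06 in male than in female WT mice, the difference on which the genes were chosen. As background, 0.250% of all genes passed the edgeR threshold in that contrast and 8.16% had groups without overlap. LKO mice, which did not enter that contrast, gave a measurement in other animals. Fut1 was at 2.41 CPM in male and 3.48 CPM in female LKO ileum, a log2 difference of -0.53 (SE 0.20), with 1 female (replicate 2) inside the male range and an edgeR adjusted p of 0.150. The test was not passed. Without the B cell rich libraries, Fut1 differed by 0.67 in males and 0.25 in females for LKO over WT, by 0.46 over both sexes and by -0.56 between the sexes in LKO mice.

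The numbers that open the sample titles run in blocks that are uneven over the groups, and their meaning was not given. In males, every WT number is lower than every LKO number, while in females the numbers of the genotypes interleave. Male genotype differences, that of Fut1 included, therefore cannot be told apart from the order of these numbers. Within the run of 6 consecutive numbers that holds all 4 groups, Fut1 was at 1.42 CPM in the male WT mouse, 2.38 in the male LKO mouse, 2.64 in the female WT mouse and 2.62, 4.15 and 3.71 in the female LKO mice. Each of the first 3 values is 1 mouse. Per 10000 counts of the 8 epithelial markers, Fut1 had 0.723 to 0.859 counts in male WT, 1.01 to 1.63 in male LKO, 1.58 to 2.21 in female WT and 1.5 to 2.76 in female LKO. The epithelial sum was itself higher in males.

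Paneth cell markers, like Fut1, were higher in male LKO than in male WT mice. The sum of 7 markers (Lyz1, Mmp7, Ang4, Itln1, Mptx2, Pla2g2a and Nupr1) was 7679 to 9189 CPM in male WT and 12362 to 14175 CPM in male LKO ileum, and 10087 to 14058 CPM in female WT and 11750 to 13611 CPM in female LKO ileum. In both male groups replicate 3 had the lowest sum and the highest Fut1. The values were 7679 and 1.58 CPM in WT, and 12362 and 2.94 CPM in LKO. In males 7 of 7 had a higher fitted mean in LKO, and DESeq2 called 5 of them, where it called 0.415% of all genes. In edgeR 3 rose at the threshold, where 0.0527% of all genes were called. These were Lyz1, a lysozyme (log2 fold change 0.64, adjusted p = 0.00890), Itln1, an intelectin (0.66, adjusted p = 0.000609), and Mmp7, the protease that activates defensins (0.47, adjusted p = 0.0442). Without the B cell rich male WT replicate 2, Mmp7 was not called (0.42, adjusted p = 0.124). All 7 markers had counts in every library. The male differences in these markers likewise cannot be told apart from the order of the title numbers. Itln1 ranked 9 among 14422 genes in likeness to Fut1. Its Pearson r of log2 CPM was 0.816 over the 16 libraries and -0.015 after each group mean was subtracted. The part of Paneth cell RNA in the Fut1 values was not tested. In RNA of whole tissue pieces, fewer cells of a type and less RNA per cell cannot be told apart.

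**Figure D3:**
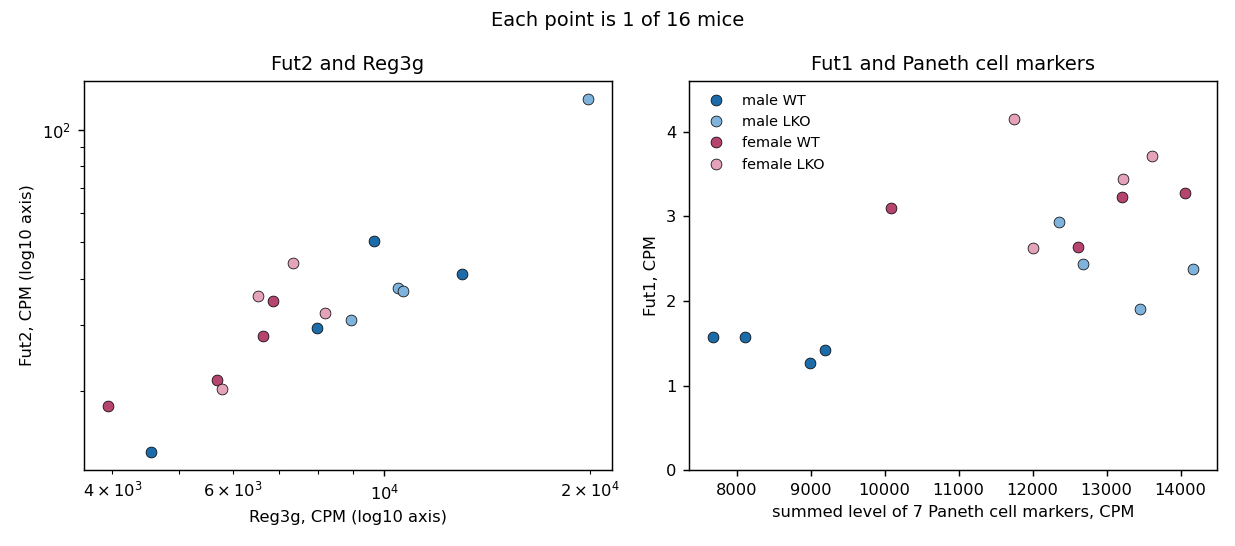
Left, Fut2 against Reg3g in CPM, both on log10 axes. Right, Fut1 in CPM against the summed CPM of 7 Paneth cell markers. Each point is 1 of 16 mice, coloured by group. Male LKO replicate 3 is the highest for both Fut2 (121 CPM) and Reg3g (19871 CPM), and the 4 male WT mice lie lowest on both axes of the right panel.

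Fut2 varied among mice of a group more than between groups. Male WT mice had 29.6, 13.7, 41.2 and 50.4 CPM of Fut2 (replicates 1 to 4), with a mean of 33.7 ± 15.8 (SD, n = 4). Male LKO mice had 37.8, 31.0, 121 and 37.1 CPM, with a mean of 56.7 ± 43.1. Replicate 3 stood well above the other male LKO mice. In females, WT mice had 21.4, 28.0, 34.7 and 18.3 CPM, and LKO mice had 20.2, 43.9, 36.0 and 32.4 CPM, with means of 25.6 ± 7.31 and 33.1 ± 9.85. The 4 ranges overlapped, and Fut2 had a within-group SD of 0.69 on the log2 scale against 0.40 between the group means. From the lowest to the highest library, Fut2 spanned 8.84-fold, the widest range of the 8 genes, and Fut1 3.27-fold.

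The Fut2 log2 fold change for LKO over WT was 0.74 (SE 0.61, adjusted p = 0.999 in edgeR) in males and 0.36 (SE 0.29, adjusted p = 0.645) in females. Without male LKO replicate 3 the male value was 0.063, and leaving out 1 library gave 0.19 (without female LKO replicate 2) to 0.55 (without female LKO replicate 1) in females. Over both sexes it was 0.55 (SE 0.34, adjusted p = 0.595) and 0.22 without male LKO replicate 3, and the male minus female difference of effects was 0.38 (SE 0.69, adjusted p = 0.945), which became -0.30 without that library. In LKO mice, males exceeded females by 0.78 (SE 0.53, adjusted p = 0.416) with the library and by 0.11 without it. Without the B cell rich libraries, the Fut2 values for LKO over WT were 0.49 in males and 0.20 in females. All Fut2 values rested on 216 to 2063 counts per library.

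**Figure D4:**
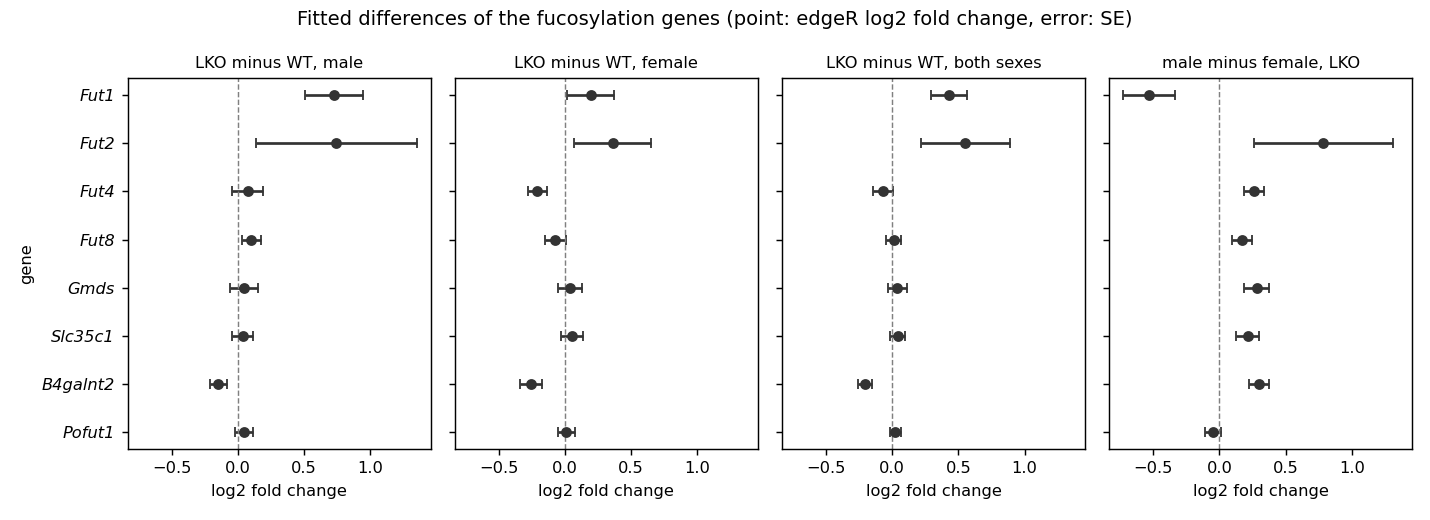
Fitted edgeR log2 fold changes of the 8 genes with their SE in 4 comparisons, with the dashed line at 0. Fut1 and Fut2 lie to the right in the 3 genotype panels, B4galnt2 lies to the left in them (-0.15, -0.26 and -0.20), and in LKO mice Fut1 lies to the left and B4galnt2 to the right.

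The ratio of Fut2 to Fut1 counts within a library needs no scaling between libraries. In male WT mice it was 18.8, 10.8, 26.1 and 35.4 counts of Fut2 per count of Fut1, and in male LKO mice 15.9, 16.3, 41.3 and 15.2. Female WT mice had 6.91, 8.56, 10.7 and 6.94, and female LKO mice 5.88, 16.7, 8.66 and 8.74. Every male ratio was above every female ratio but that of female LKO replicate 2. The mean log2 ratio was 4.38 ± 0.733 in male WT, 4.33 ± 0.695 in male LKO, 3.03 ± 0.303 in female WT and 3.22 ± 0.626 in female LKO (SD, n = 4). By genotype, the log2 ratio differed by -0.054 in males and 0.19 in females, less than the SD within groups. Leaving out 1 library turned both signs, from -0.40 (without male LKO replicate 3) to 0.20 (without male WT replicate 4) in males and from -0.093 (without female LKO replicate 2) to 0.41 (without female LKO replicate 1) in females. By sex it differed by 1.35 in WT, where it includes the Fut1 contrast that the genes were chosen on, and by 1.11 in LKO mice.

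**Figure D5:**
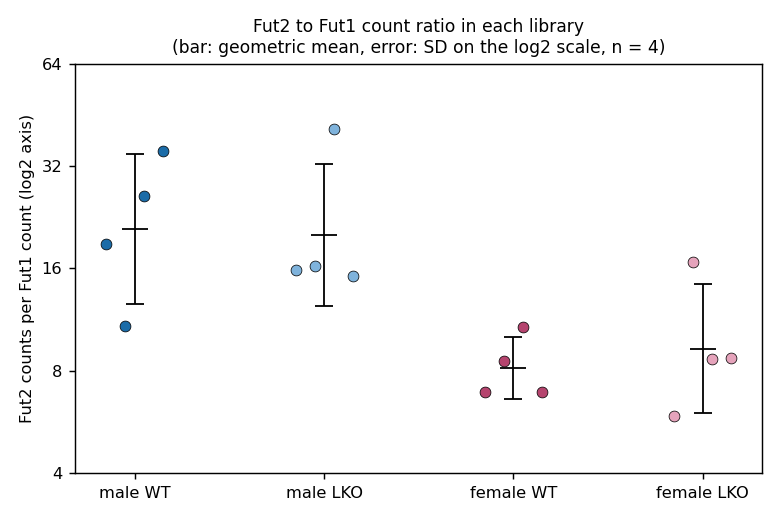
Counts of Fut2 per count of Fut1 in each of 16 libraries on a log2 axis. The bar is the geometric mean and the error the SD on the log2 scale (n = 4). Male ratios run from 10.8 to 41.3 and female ratios from 5.88 to 16.7.

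Fut4 was the 1 gene of the 8 without overlap between the female groups, where 6.30% of all genes had none. Male WT mice had 58.7, 51.4, 53.2 and 36.6 CPM and male LKO mice 49.9, 48.6, 57.2 and 53.9 CPM, which overlapped (log2 fold change 0.073, SE 0.12). Female WT mice had 50.8, 49.6, 51.0 and 51.0 CPM, and female LKO mice 44.6, 38.9, 42.9 and 47.8 CPM. Female LKO values were all below female WT values, a log2 fold change of -0.21 (SE 0.069, adjusted p = 0.315 in edgeR). The male minus female difference of effects was 0.28 (SE 0.14, adjusted p = 0.845), so the effect was not shown to differ between the sexes. Without the B cell rich libraries the female value was -0.12 (adjusted p = 0.839). In LKO mice, male Fut4 was higher than female by 0.26 (SE 0.077, adjusted p = 0.0998), without overlap, as for 12.9% of all genes there. Over the alternative settings that difference ran from 0.12 to 0.31.

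Core and O-linked fucosyltransferases were the steadiest. Fut8 ranged from 80.3 to 106 CPM and Pofut1 from 40.9 to 50.2 CPM over all 16 libraries, spans of 1.32-fold and 1.23-fold. For LKO over WT, Fut8 had a log2 fold change of 0.10 (SE 0.071, adjusted p = 0.999 in edgeR) in males and -0.074 (SE 0.080, adjusted p = 0.733) in females. Pofut1 had 0.046 (SE 0.070, adjusted p = 0.999) and 0.0099 (SE 0.062, adjusted p = 0.962). Of 19 genes of the Notch pathway, whose receptors POFUT1 modifies, 0 were called for LKO over WT in males, females or both by edgeR or DESeq2. In edgeR 0, 0 and 2 had an unadjusted p below 0.05, beside 5.29%, 11.7% and 11.2% of all genes. Among the listed genes averaging 1 CPM or more, the 3 largest both-sexes differences were -0.18 for Jag1 (adjusted p = 0.397), 0.15 for Jag2 (adjusted p = 0.551) and -0.13 for Notch1 (adjusted p = 0.411).

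Gmds and Slc35c1 of GDP-fucose supply had genotype differences smaller than their SE in each sex. Gmds ranged over 385 to 531 CPM in male WT, 414 to 542 in male LKO, 321 to 408 in female WT and 327 to 410 in female LKO mice. Its log2 fold change for LKO over WT was 0.046 (SE 0.10, adjusted p = 0.999 in edgeR) in males and 0.035 (SE 0.090, adjusted p = 0.900) in females. Slc35c1 ranged over 242 to 300 CPM, 249 to 308 CPM, 216 to 244 CPM and 210 to 267 CPM in the same order of groups, with log2 fold changes of 0.035 (SE 0.081, adjusted p = 0.999) in males and 0.052 (SE 0.080, adjusted p = 0.822) in females. In LKO mice the male minus female difference was 0.28 for Gmds (SE 0.095, adjusted p = 0.125, without overlap, as for 12.9% of all genes there). It was 0.21 for Slc35c1 (SE 0.087, adjusted p = 0.180), and both differences fell short of the threshold. Scaled to the epithelial markers, which were higher in males, these were 0.15 and 0.074, and without the B cell rich libraries 0.16 and 0.080. Slc35c2 of the same list had lower means in males, at 44.7 against 50.8 CPM in LKO mice (-0.18, adjusted p = 0.335).

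Of the 12 genes of GDP-fucose synthesis and transport, 0 were called in edgeR in the genotype comparisons or in LKO mice between the sexes. At an unadjusted p below 0.05 there were 0 in males, 0 in females, 1 over both sexes and 5 between the sexes in LKO mice, where DESeq2 called 1, Fpgt of fucose salvage, and 0 in the genotype comparisons. The shares of all genes at that edgeR p were 5.29%, 11.7%, 11.2% and 22.6% in the same order. Between the sexes in LKO mice, DESeq2 called 6.85% of all genes. The 3 with the largest both-sexes differences among those averaging 1 CPM or more were Slc35c2, a relative of Slc35c1 (0.16, adjusted p = 0.397), Pmm2, which converts mannose phosphates (0.094, adjusted p = 0.503), and Gmppb, which makes GDP-mannose (0.056, adjusted p = 0.777). The median of the list was 0.022 beside 0.00065 for all genes. The fucosidases Fuca1 and Fuca2, which remove fucose in lysosomes and secretions, had both-sexes differences of 0.073 (adjusted p = 0.535) and -0.031 (adjusted p = 0.882).

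B4galnt2 was the 1 gene of the 8 whose fitted level was lower in LKO mice of both sexes, while with epithelial scaling Slc35c1 and Pofut1 were lower in both as well. That scaling also lowered the median of all genes, to -0.051 in males and -0.093 in females, and Slc35c1 and Pofut1 were not below it in either sex. Male WT mice had 1154, 1172, 1110 and 1047 CPM, and male LKO mice 1091, 1004, 973 and 972 CPM. Female WT mice had 1046, 890, 1050 and 944 CPM, and female LKO mice 923, 798, 743 and 814 CPM. In each sex the LKO mean was lower and the ranges overlapped, with 1 male LKO mouse above the lowest male WT mouse and 1 female LKO mouse above the lowest female WT mouse. The log2 fold change was -0.15 (SE 0.066, adjusted p = 0.917 in edgeR) in males, -0.26 (SE 0.083, adjusted p = 0.313) in females and -0.20 (SE 0.052, adjusted p = 0.102) over both sexes. Over the alternative settings the male value ran from -0.20 to -0.034 and the female value from -0.36 to -0.14. DESeq2 on the same counts called the both-sexes difference (adjusted p = 0.0157), where it called 1.44% of all genes. So did edgeR with libraries scaled to the epithelial markers (-0.28, adjusted p = 0.0184), where 1.24% were called. That scaling moved the median of all genes from 0.00065 to -0.071, and 181 of its 193 calls were lower in LKO mice. The B4galnt2 call under it is therefore not separate from that shift. Without the B cell rich libraries the B4galnt2 difference was -0.13 (adjusted p = 0.591 in edgeR).

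In LKO mice, B4galnt2 was higher in males than in females by 0.30 (SE 0.074, adjusted p = 0.0778 in edgeR), without overlap. Among all genes in that comparison, 15 of 15250 (0.0984%) were called and 12.9% had groups without overlap. Of the 8 genes, 0 were called, 6 had an unadjusted p below 0.05, against 3451 genes of all those tested (22.6%), and 3 (Fut4, Gmds and B4galnt2) had groups without overlap. DESeq2 called B4galnt2 (adjusted p = 0.00825) and Fut4 (adjusted p = 0.0471), in a comparison where it called 1044 of 15250 genes (6.85%). Scaled to the epithelial markers, whose medians were higher in males, the B4galnt2 difference was 0.15 (adjusted p = 0.246), and in WT mice it went from 0.19 to -0.0080. Smooth muscle markers, 6 genes summed, were at 3198 to 3605 CPM in male WT, 2779 to 3543 in male LKO, 3520 to 5467 in female WT and 3708 to 5203 in female LKO mice. The part of these tissue shares in the sex difference was not tested.

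Among 30 genes that build and cap the glycan chains, 27 passed the filter for LKO over WT and 0 were called in edgeR, with 4, 7 and 7 at an unadjusted p below 0.05 in males, females and both. All genes at that p made up 5.29%, 11.7% and 11.2%. DESeq2 called 0 in males, 1 in females (Galnt7) and 2 over both sexes (Galnt12 and B4galnt2, which is itself on the list). Of all genes it called 0.415%, 1.01% and 1.44% in the same order. GALNT enzymes start mucin O-glycans. B3galt5, which builds the galactose end of the chains that FUT2 acts on, had the largest both-sexes difference of the list (0.61, SE 0.43, adjusted p = 0.659). All male values were above all female values. Male WT mice had 37.3, 25.1, 62.9 and 100 CPM and male LKO mice 42.0, 42.2, 224 and 50.3 CPM against female WT values of 22.4, 14.9, 6.69 and 7.86 CPM and female LKO values of 14.5, 19.5, 17.7 and 24.3 CPM. The male minus female difference in LKO mice was 2.24 (SE 0.68, adjusted p = 0.139). B3gnt7 (0.44, adjusted p = 0.369), which extends chains with N-acetylglucosamine, and A4gnt (-0.26, adjusted p = 0.422), which caps gland mucin chains, were the next in the list by both-sexes difference.

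The genes most like Fut2 included Reg3g, a secreted lectin that kills Gram-positive bacteria. Over the 16 libraries and 14422 genes averaging 1 CPM or more, the highest Pearson r of log2 CPM with Fut2 were 0.901 for Stom, a membrane protein, 0.890 for Reg3g, 0.874 for Pla2g5, a secreted phospholipase, 0.861 for Sulf2, an extracellular sulfatase, and 0.853 for Cfi, complement factor I. After each group mean was subtracted they were 0.910, 0.900, 0.910, 0.893 and 0.847. Spearman rho over the 16 libraries was 0.806, 0.821, 0.782, 0.832 and 0.659 in the same order. All points shared the same libraries. How far these values rest on male LKO replicate 3, the highest library for Fut2 and for Reg3g, was not tested. Reg3g was at 8929 to 19871 CPM in male LKO mice and 3938 to 6879 CPM in female WT mice. Its highest library, male LKO replicate 3, was also the highest for Fut2, B3galt5 (224 CPM) and Socs3 (124 CPM), a feedback inhibitor of STAT3. Socs3 was nearly as high in male LKO replicate 4 (123 CPM). That library had 37.1 CPM of Fut2, 10638 CPM of Reg3g and 50.3 CPM of B3galt5.

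For Fut1, the most alike were Hnmt, which inactivates histamine (0.841), the tetraspanin Tspan33 (0.838), Lbh (0.836), 9330175E14Rik (0.832) and Cd86, a costimulatory protein of antigen-presenting cells (0.830). Within groups these were 0.463, 0.314, 0.121, 0.518 and 0.248, lower than over the libraries, while the values for Fut2 changed little. Fut1 had from 20 counts (male WT replicate 2) to 213 (female LKO replicate 1). The part of low counts in its within-group values was not tested. Fut1 and Fut2 had r = 0.094 with each other over 16 libraries and 0.477 within groups. Gmds and Slc35c1 had r = 0.803 and, within groups, 0.619. Fut1 and B4galnt2 had r = -0.74 over the libraries and -0.14 within groups.

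The interleukin 22 and lymphotoxin axis, which controls Fut2 in this tissue, gave no called gene. Il22 was at 0 to 1.18 CPM, with 98 counts over all 16 libraries, and its receptor subunit Il22ra1 at 166 to 260 CPM. Of 21 listed genes, 18 passed the filter over both sexes and 0 were called in edgeR, with 3 at an unadjusted p below 0.05, as were 11.2% of all genes. DESeq2 called 0. Among the listed genes averaging 1 CPM or more, the largest both-sexes differences were 0.60 for Ltb, a lymphotoxin subunit (adjusted p = 0.661), 0.49 for Socs3 (adjusted p = 0.342) and 0.39 for Reg3g (adjusted p = 0.554). Ltb was highest in female LKO replicates 2 and 3, at 13.5 and 27.0 CPM, the libraries richest in B cell markers, and without the B cell rich libraries the difference was 0.21 (adjusted p = 0.783).

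Of 12 epithelial transcription factors, 1 was called over both sexes in edgeR, where 0.269% of all genes were. Esrrg, an orphan nuclear receptor of oxidative metabolism, was lower in LKO ileum by 1.11 on the log2 scale over both sexes (SE 0.13, adjusted p = 0.000473 in edgeR), with levels of 4.67 to 7.61 CPM in male WT, 2.39 to 3.52 in male LKO, 4.95 to 7.34 in female WT and 2.08 to 3.42 in female LKO mice. Hnf4g (-0.22, adjusted p = 0.285) and Gata4 (-0.19, adjusted p = 0.802), factors of gut identity, were the next by size. The enteroendocrine granule gene Chgb fell by 0.30 over both sexes (adjusted p = 0.0458 in edgeR). Without the B cell rich libraries, Esrrg stayed called at -1.01 (adjusted p = 0.0193), and Chgb was at -0.31 (adjusted p = 0.200).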

How the data were processed

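Stranded poly(A) RNA libraries of ileum from 4 mice per group were sequenced, and the authors aligned single-end reads to mm10 (STAR 2.5.2 and HOMER 4.10, per the submitters' processing notes). The authors deposited raw counts, as whole numbers per gene over exons, with no scaling for library size. The strand option and annotation version were not given in the sources used here. Counts were tested in R 4.3.3 with edgeR 4.0.16 (quasi-likelihood F-test, trimmed mean of M-values, filterByExpr, Benjamini-Hochberg over all genes, threshold 0.05), each pair of groups on its own 8 libraries and the both-sexes and interaction fits on all 16. All 8 genes passed the filter in every fit, and no library was dropped. Each p-value sets a group difference against the spread between these animals. Nothing in the labels names separate litters or extractions, so their part in the differences and in that spread is not known. DESeq2 1.42.0, other scalings, filters and sample sets were alternatives. Log2 CPM used a prior count of 2. The 3-count floor was 0.0485 to 0.190 CPM.

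The 8 genes and all lists were chosen with earlier results of these data known. Genes named beside them were Bcl6, Sec1, Fut9, Tsta3, Il22, Il22ra1, listed genes past the threshold outside the WT sex contrast, and up to 3 genes per list with a mean of at least 1 CPM and the largest both-sexes difference. The male LKO and male WT comparison and the WT sex contrast share the male WT mice, and the female comparison shares the female WT mice with it. On simulated counts with 200 genes changed 2-fold, edgeR recovered 85.0% in the male comparison, and 7.36% of its calls were false. False calls of DESeq2 were 13.9% in males, 9.39% in females, 13.1% over both sexes and 14.3% between the sexes in LKO mice. The fitted genotype differences of the 8 genes were smaller than 2-fold, so the recovered share does not apply to them.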

Additional observations from a re-analysis of the deposited data

Results flagged for a closer look

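Among 32 combinations of the 8 genes and 4 groups, 3 held a mouse that lay far from the other 3 of its group by Dixon's ratio of gap to range, where chance gives about 1 in 20. Fut2 in male LKO replicate 3 was at 121 CPM, while the other male LKO mice had 31.0 to 37.8 CPM. Fut4 in female WT replicate 2 was at 49.6 CPM in a group that spanned 49.6 to 51.0 CPM. Pofut1 in male WT replicate 3 was at 40.9 CPM, while the other male WT mice had 45.3 to 45.9 CPM.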

How the results depend on the processing

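With 912 alternative values of the 8 genes' differences, 835 kept their direction and side of the threshold (in the WT sex contrast, which is described without a call, their direction within 1 SD), 5 moved by more, 6 gained a call and 66 changed sign. The replicate number was shared between groups, and the deviations of same-numbered samples had a mean correlation of 0.027 (from -0.17 to 0.30). For samples with different numbers it was -0.0089 (from -0.39 to 0.48). The main fits used no pairing, and this check cannot exclude one. With the replicate block, called genes were 16 in males, 15 in females, and 16 over both sexes, and Gmds in the interaction was -0.0017.

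For male LKO minus WT (8 genes called), DESeq2 gave 63, no filter 25, all 16 libraries in 1 model 4 and the title number as covariate 3, and leaving out 1 library gave 5 to 29. For females (6), DESeq2 gave 154, epithelial scaling 30 (3 higher and 27 lower against 3 and 3), no filter 15, all 16 libraries 12, low B cell libraries 2, and leaving out 1 library 0 to 4. For the WT sex contrast (38, as 15 higher and 23 lower), DESeq2 gave 250, epithelial scaling 1382 (15 and 1367), no filter 71, the title number 17 and low B cell libraries 21, RLE scaling 27 (15 and 12), and leaving out 1 library 9 to 64. For the LKO sex contrast (15, as 9 and 6), DESeq2 gave 1044, epithelial scaling 934 (27 and 907), no filter 139, all 16 libraries 403, low B cell libraries 33 and leaving out 1 library 7 to 665. Its called genes of the 8 were 2 with DESeq2 and 1 with all 16 libraries, against 0, and 0 to 1 on leaving out 1 library. For both sexes (42, as 19 and 23), DESeq2 gave 224, epithelial scaling 193 (12 and 181), the title number 2, low B cell libraries 5 and leaving out 1 library 5 to 102, with 1 called gene of the 8 under DESeq2 and 1 under epithelial scaling. The interaction called 0 to 1 genes when 1 library was left out. Epithelial scaling moved the median of all genes to -0.20 in the WT and -0.15 in the LKO sex contrast. For LKO over WT it moved that median to -0.051 in males, -0.093 in females and -0.071 over both sexes. The low B cell setting, which leaves out 4 libraries, was chosen after seeing the data.

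Signs that changed were as follows. With epithelial scaling, Slc35c1 was -0.012 and Pofut1 -0.0051 in males, Gmds -0.071, Slc35c1 -0.056 and Pofut1 -0.091 in females, B4galnt2 -0.0080 in the WT sex contrast, Fut8 -0.061, Gmds -0.034, Slc35c1 -0.034 and Pofut1 -0.048 over both sexes, and Slc35c1 0.044 in the interaction. With low B cell libraries, Gmds was -0.013 and Slc35c1 -0.016 in males, Fut8 0.069 in females and 0.089 in the WT sex contrast, and the interaction was -0.022 for Fut8, -0.23 for Gmds and -0.020 for Pofut1. Fut8 in the WT sex contrast was 0.00042 with DESeq2, 0.00026 with RLE scaling, 0.0017 with all 16 libraries and 0.0037 with the title number, which also gave 0.015 for Fut4 there, 0.0043 for Pofut1 in the LKO sex contrast and 0.013 for Slc35c1 in the interaction. Thinning the deepest library to 18.0 M counts gave -0.00044 for Gmds in the interaction. Leaving out 1 library gave, in males, -0.052 to 0.16 for Fut4, -0.048 to 0.14 for Gmds and -0.016 to 0.084 for Slc35c1, and in females, -0.025 to 0.095 for Gmds, -0.0041 to 0.11 for Slc35c1 and -0.017 to 0.045 for Pofut1. It gave -0.11 to 0.10 for Fut4 and -0.056 to 0.047 for Fut8 in the WT sex contrast, -0.020 to 0.041 for Fut8 and -0.0053 to 0.084 for Gmds over both sexes, and -0.30 to 0.65 for Fut2, -0.086 to 0.10 for Gmds, -0.078 to 0.032 for Slc35c1 and -0.0098 to 0.056 for Pofut1 in the interaction. The cause of these changes was not tested. In the 4 comparisons that hold it, leaving out male LKO replicate 3 gave the lowest Fut2 values. Depth limited Fut1 most, with 20 counts in its lowest library.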
